A study of Sus scrofa with 6 samples.

Results

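LAMA2, CPED1, RGS2, NAAA and IL10RA are 5 of 360 genes that were higher on every array labelled tibial than on any labelled mandibular. Each site had 3 arrays. The 360 are 3.31% of the 10881 genes with a name on the array. The 5 genes were chosen by their measured levels, for that lack of overlap between the labelled sites. The separation between the sites was thus the condition of the choice, and the levels are given as a description with no test. Each gene had exactly 1 probe set with a single gene symbol. RNA was measured on Affymetrix arrays in primary cultures of bone marrow mesenchymal stem cells, the adherent stromal cells that can form bone, cartilage and fat. All cultures came from female American Yorkshire pigs aged 4 months and were at passage 0. The mandibular group was grown from symphyseal marrow of the mandible, where the jaw's left and right parts meet, and the tibial group from tibial marrow, with no other difference in treatment given. The design text names 3 pigs as donors for both sites and harvest at 80% confluence. No label ties a replicate number to a pig, so the groups were compared as unpaired, and p-values measure the spread between these samples. Whole marrow was plated on plastic without a sort, so other adherent cells may have been carried along.

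The 5 genes have different roles. LAMA2 encodes the alpha-2 chain of laminin, a trimer of an alpha, a beta and a gamma chain that builds basement membranes and is bound by integrins and dystroglycan. Its loss causes a congenital muscular dystrophy. RGS2 is a regulator of G protein signalling, a protein that speeds the shut-off of G proteins, above all of the Gq class, and that is switched on by cyclic AMP signals in bone-forming cells. NAAA is a lysosomal amidase that breaks down palmitoylethanolamide, a lipid messenger of the N-acylethanolamine family, and it is known from macrophages. IL10RA is the chain of the interleukin-10 receptor that binds the ligand, and it is known from blood-derived cells, where it limits inflammation. CPED1 encodes a protein with cadherin-like and PC-esterase domains, and it lies beside WNT16 at a locus linked to bone density in people.

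Values are levels on a log2 scale as deposited after RMA, so a difference of 1 is a doubling. RMA levels are relative, and levels of different genes are not compared with each other. Array medians lay between 5.63 and 5.71 and lower quartiles between 3.86 and 3.94. No measure of detection came with the values, and a low level may be background. Of the stromal markers, THY1 lay between 10.50 and 10.70, COL1A1 between 13.24 and 13.49 and PDGFRB between 10.45 and 11.15. The marrow niche gene CXCL12 was below the array medians throughout, between 4.14 and 5.06. VCAM1, an adhesion gene of stromal and endothelial cells, was above them only on tibial 1 and tibial 2, at 9.52 and 7.55. PTPRC, the pan-leukocyte antigen CD45, reached 7.66 on tibial 1 and 6.96 on tibial 2. Positional genes did not follow the labels on the arrays labelled mandibular 2 and tibial 3. HOXA7, a trunk and limb homeobox gene, measured 8.40 on mandibular 2 and 5.26 and 5.23 on mandibular 1 and mandibular 3, while on tibial 1, tibial 2 and tibial 3 it measured 8.01, 7.92 and 5.89. ALX1, a homeobox gene active in developing facial tissue, was at 3.86 on mandibular 2 against 8.08 and 7.44 on mandibular 1 and mandibular 3, and 7.97 on tibial 3 against 3.90 and 3.54 on tibial 1 and tibial 2. Whether the labels of these arrays are exchanged was not tested, and sites are the labelled ones throughout. Under an exchange none of the 5 genes would keep its lack of overlap, since each was lower on mandibular 2 than on tibial 3, and every difference and fold would take another value. The differences of the 5 genes, the number of calls and the main marker lists are also given without these arrays.

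With limma and Benjamini-Hochberg adjustment, 0 of 27558 probe sets passed between the labelled sites (0.0%). The lowest adjusted p of that fit was 0.9995, and 836 probe sets (3.03%) had an unadjusted p below 0.05. Without the arrays labelled mandibular 2 and tibial 3, limma called 195 probe sets, and it called 2 without tibial 3 alone and 1 without tibial 1 alone. Of the 10881 named genes, 360 had tibial levels that all lay above the mandibular ones, which is 3.31%. Another 341, or 3.13%, had mandibular levels that all lay above the tibial ones. The 5 genes belong to the 360 by construction, so nothing is read from that count. The distance from the highest mandibular to the lowest tibial level, here called the gap, was at least 0.5 for 5 of the 10881 genes (0.046%). These were LAMA2, CPED1, NAAA, RGS2 and F13A1, a coagulation factor gene that is not among the 5. IL10RA had a gap of 0.28 and stood at place 17 by gap, while it stood at place 4 of the 360 by unadjusted p. Both places use the contrast on which the genes were chosen and are no test.

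LAMA2 had the widest separation. Its levels were 4.98, 5.0 and 5.12 on mandibular 1, mandibular 2 and mandibular 3, and 7.70, 6.11 and 6.43 on tibial 1, tibial 2 and tibial 3. The mandibular levels were nearly equal, while tibial 1 stood above the other two tibial arrays, and the sites did not overlap. The means were 5.03 ± 0.08 (SD, n = 3) and 6.75 ± 0.84 (SD, n = 3). Mandibular minus tibial came to -1.71 (SE 0.39), or 3.28-fold higher in tibial cultures. The gap was 0.99, smaller than the tibial range of 1.59. In the order of levels, the step from tibial 3 to tibial 1, at 1.28, was larger than the step from the highest mandibular to the lowest tibial array. The mandibular levels lay below the median of all probe sets on their arrays, so how much of the mandibular signal is background is not known. If part of it is background, the fold understates the ratio of RNA.

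CPED1 had the most even tibial levels. It measured 5.73, 6.26 and 5.92 on mandibular 1, mandibular 2 and mandibular 3, and 6.94, 6.94 and 7.12 on tibial 1, tibial 2 and tibial 3. Here the highest tibial level was on tibial 3 and the highest mandibular level on mandibular 2. The means were 5.97 ± 0.27 (SD, n = 3) and 7.0 ± 0.11 (SD, n = 3). Mandibular minus tibial came to -1.03 (SE 0.16), or 2.04-fold higher in tibial cultures. Its gap of 0.68 was 1.28 times the wider of the ranges within a site, and CPED1 was the one gene of the 5 for which this ratio was above 1.

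RGS2 measured 6.83, 6.77 and 6.95 on mandibular 1, mandibular 2 and mandibular 3, and 8.09, 8.0 and 7.50 on tibial 1, tibial 2 and tibial 3. Tibial 1 and tibial 2 were close together and tibial 3 lay between them and the mandibular arrays, 0.50 below tibial 2 and 0.56 above mandibular 3. The means were 6.85 ± 0.09 (SD, n = 3) and 7.87 ± 0.32 (SD, n = 3). Mandibular minus tibial came to -1.01 (SE 0.18), or 2.02-fold higher in tibial cultures.

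NAAA varied within both sites. It measured 7.15, 6.99 and 6.55 on mandibular 1, mandibular 2 and mandibular 3, and 8.18, 8.83 and 7.73 on tibial 1, tibial 2 and tibial 3. It was the one gene of the 5 that was highest on tibial 2, and its gap of 0.59 was narrower than its tibial range of 1.10. The means were 6.89 ± 0.31 (SD, n = 3) and 8.25 ± 0.55 (SD, n = 3). Mandibular minus tibial came to -1.35 (SE 0.30), or 2.55-fold higher in tibial cultures.

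IL10RA had the smallest difference. It measured 6.86, 6.74 and 7.09 on mandibular 1, mandibular 2 and mandibular 3, and 7.92, 7.82 and 7.37 on tibial 1, tibial 2 and tibial 3. The order of the tibial arrays was that of RGS2, and the gap of 0.28 between mandibular 3 and tibial 3 was smaller than the step of 0.46 from tibial 3 to tibial 2. The means were 6.90 ± 0.18 (SD, n = 3) and 7.70 ± 0.29 (SD, n = 3). Mandibular minus tibial came to -0.81 (SE 0.18), or 1.75-fold higher in tibial cultures.

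**Figure D1:**
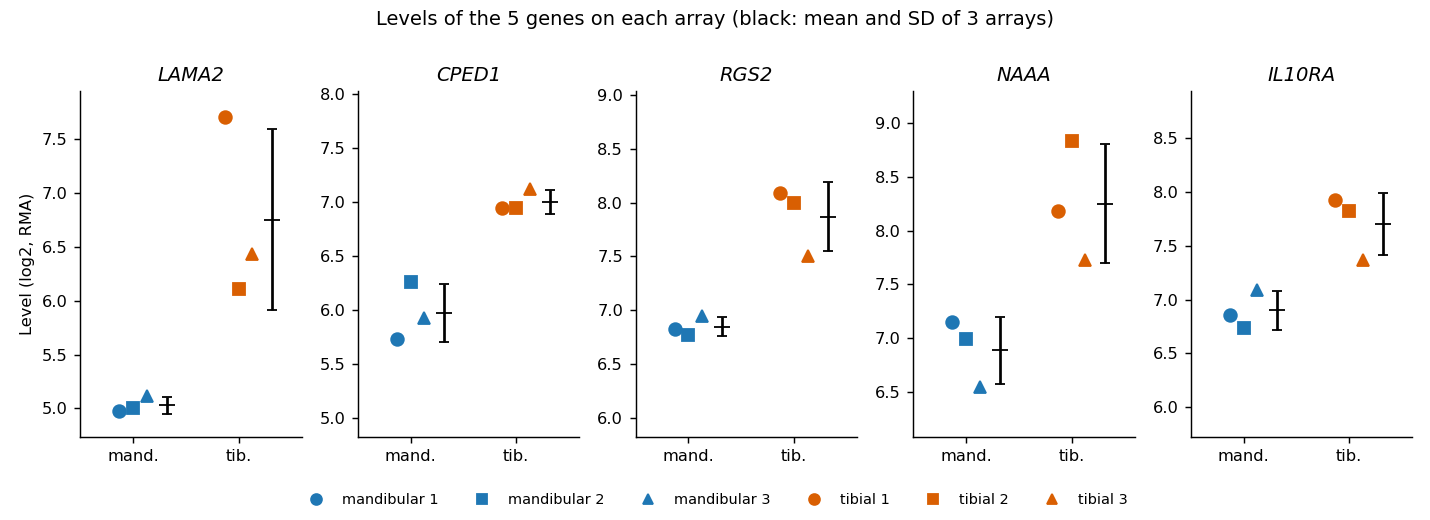
Levels of LAMA2, CPED1, RGS2, NAAA and IL10RA on the log2 scale (vertical axis, each panel spanning the same number of units) on the 3 mandibular and 3 tibial arrays, with the mean and SD of each site in black. The tibial points lie above the mandibular points in every panel, which was the condition of the choice; tibial 3 is lowest of its site for RGS2, NAAA and IL10RA and highest for CPED1.

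Leaving out the arrays labelled mandibular 2 and tibial 3 gave differences of -1.85 for LAMA2, -1.11 for CPED1, -1.16 for RGS2, -1.65 for NAAA and -0.89 for IL10RA. With 1 array left out at a time, LAMA2 ranged from -2.03 (without tibial 2) to -1.24 (without tibial 1) and NAAA from -1.61 (without tibial 3) to -1.06 (without tibial 2). The ranges were -1.17 to -0.91 for CPED1, -1.19 to -0.90 for RGS2 and -0.97 to -0.70 for IL10RA. Since groups that do not overlap keep their direction when an array is dropped, the sign in these fits is fixed by the choice of the genes.

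The edge of the choice was not sharp. By unadjusted p among the 360 genes, the 5 held places 1 to 5, with LAMA2 at place 5. This order uses the same contrast as the choice, so it describes the choice and is no test of the 5 genes. Just outside stood BCAR3, a signalling adaptor gene, with levels of 5.94, 6.12 and 5.92 against 6.68, 6.65 and 6.38. Its difference of -0.58 was smaller than any of the 5, and its gap of 0.26 was near that of IL10RA. F13A1, at place 11, had the larger difference of -2.78, with 5.59, 6.50 and 5.83 on the mandibular arrays, 9.23 and 7.03 on tibial 2 and tibial 3, and its highest level on tibial 1. Just beyond the limit of overlap lay CSF2RB, a chain shared by receptors of myeloid growth factors, where tibial 3 at 5.27 lay below mandibular 2 at 5.28. It was taken after the values were seen, as the gene with the smallest overlap among those at least 0.8 lower in mandibular cultures. Its difference was -0.88, larger in size than that of IL10RA.

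How the arrays of one site differed among themselves was limited by the choice, since a wide spread would have made the sites overlap. Deviations from the site mean showed different arrangements of the 5 genes. For LAMA2 the deviations were 0.95 on tibial 1, -0.63 on tibial 2 and -0.32 on tibial 3. For NAAA they were -0.07, 0.58 and -0.51, and for CPED1 -0.06, -0.06 and 0.12. RGS2 and IL10RA were alike, at 0.23, 0.14 and -0.36 for RGS2 and 0.21, 0.12 and -0.33 for IL10RA. On the mandibular arrays the deviations of these 2 genes were also alike in sign, with -0.02, -0.08 and 0.09 for RGS2 and -0.03, -0.16 and 0.19 for IL10RA.

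Over the 6 arrays, Pearson's r between the levels of the 5 genes ranged from 0.69 to 0.99 in the 10 pairs, a range that the common choice on the sites produces in part. Between deviations from the site means it ranged from -0.55 to 0.96, with 5 pairs above 0 and 5 below. The highest was between RGS2 and IL10RA, at 0.96, and the lowest between CPED1 and IL10RA, at -0.55. LAMA2 and NAAA had -0.30, and CPED1 was below 0 with each of the other 4 genes. These correlations describe 6 arrays that share pigs and carry no p.

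Markers of macrophages and monocytes had higher mean levels in the tibial cultures. Of 19 listed markers 14 were measured, and all 14 had lower mean levels in mandibular cultures, with a median difference of -2.14 against 0.005 over all named genes. None of the 14 passed the test (adjusted p = 0.9995 for each in limma), and 2 of 14 had no overlap, ITGAM and CD14, where 3.31% of all named genes had tibial levels above all mandibular ones. The median was -3.23 without tibial 3, -1.45 without tibial 1 and -3.64 without mandibular 2 and tibial 3. The mean level of the list lay between 4.96 and 6.33 on the mandibular and between 5.56 and 8.62 on the tibial arrays. SPI1, which encodes the myeloid transcription factor PU.1, measured 5.42, 6.41 and 5.78 on mandibular 1, mandibular 2 and mandibular 3, and 9.11, 8.11 and 6.27 on tibial 1, tibial 2 and tibial 3. In RNA from whole cultures, more cells of a type and more RNA of a gene per cell cannot be told apart. No marker is at 0 on this scale. On tibial 3, AIF1, PTPRC and MRC1 measured 3.75, 3.91 and 3.88, near the lower quartile of the array, where a level may be background. On the same array SPI1, CD14, CSF1R, C1QA, C1QB, C1QC and TYROBP lay above the array median of 5.66, with C1QA at 7.33 and C1QB at 7.04. The other markers of the list lay below it.

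Within the sites the list did not have the same level on all arrays. Its mean was 6.33 on mandibular 2 and 5.56 on tibial 3, and 11 of the 14 markers were higher on mandibular 2, with a median of -0.95 for tibial 3 minus mandibular 2. The list mean deviated from its site mean by 0.89 on mandibular 2, where LAMA2, RGS2 and IL10RA deviated by -0.04, -0.08 and -0.16. It deviated by -1.83 on tibial 3, where RGS2, NAAA and IL10RA deviated by -0.36, -0.51 and -0.33. The choice for a lack of overlap limits how far the 5 genes could deviate upward on a mandibular or downward on a tibial array, so these values are set side by side and nothing is read from them. The part of macrophage RNA in the levels of the 5 genes was not tested.

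**Figure D2:**
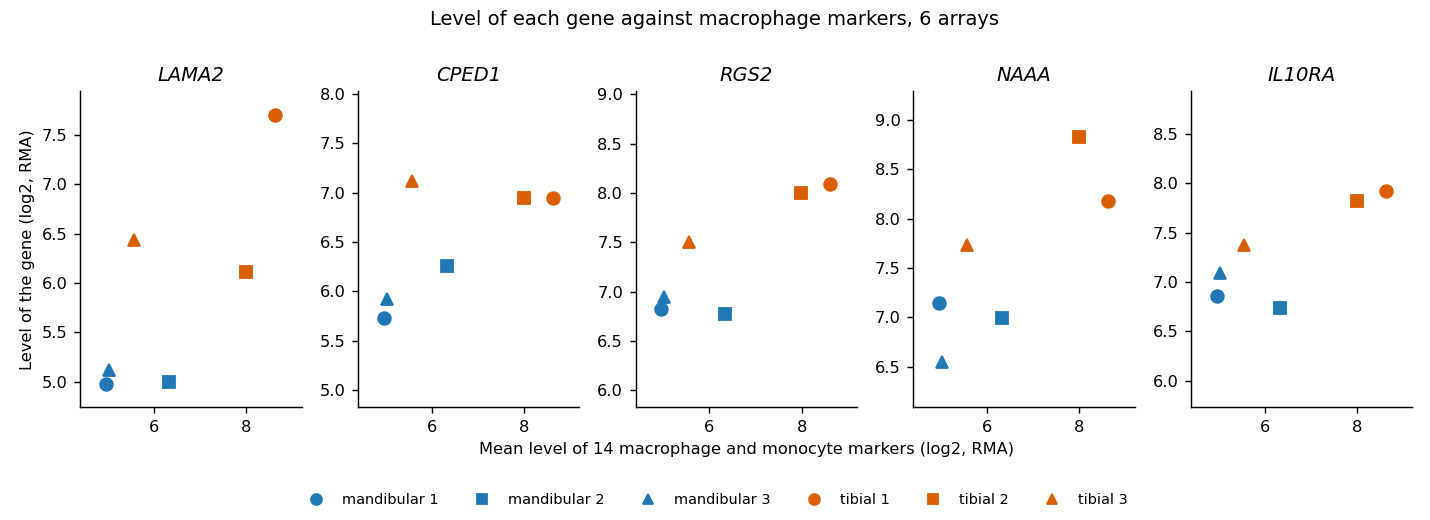
Level of each of the 5 genes (vertical axis, log2) against the mean level of 14 macrophage and monocyte markers (horizontal axis, log2) on the 6 arrays. Along the horizontal axis the sites overlap, with mandibular 2 at 6.33 and tibial 3 at 5.56. That every tibial point lies above every mandibular point was the condition of the choice, so nothing is read from the vertical order.

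Pearson's r over the 6 arrays between the deviations of the macrophage list mean and those of the genes was 0.78 for RGS2, 0.60 for IL10RA, 0.58 for NAAA, 0.44 for LAMA2 and 0.05 for CPED1. For the granulocyte list, of which 5 of 9 markers were measured and all 5 were lower in mandibular cultures with a median of -0.37, it was 0.92 for RGS2, 0.81 for IL10RA, 0.65 for NAAA, 0.49 for LAMA2 and -0.52 for CPED1. S100A12 was the 1 of the 5 without overlap, at -1.96 (SE 0.83), where 3.31% of all named genes had tibial levels above all mandibular ones. Its gap was 0.04, and its levels on tibial 3 and on all mandibular arrays lay below the lower quartiles of those arrays. The granulocyte list mean lay between 4.36 and 4.61 on the mandibular and between 4.61 and 5.71 on the tibial arrays. For the cell cycle list, whose 8 measured genes were all higher in mandibular cultures with a median of 0.97, it was -0.75 for RGS2, -0.71 for NAAA, -0.55 for IL10RA, -0.45 for LAMA2 and 0.26 for CPED1. The cell cycle median was 0.41 without tibial 1, 0.60 without mandibular 3, 1.58 without tibial 3 and 1.72 without mandibular 2 and tibial 3. The cell cycle list mean lay between 7.35 and 8.22 on the mandibular and between 5.93 and 7.86 on the tibial arrays. CPED1 thus had the value nearest 0 with the macrophage list, and RGS2 the one farthest from it. These values describe the arrays, are limited by the choice of the genes, and were not tested.

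**Figure D3:**
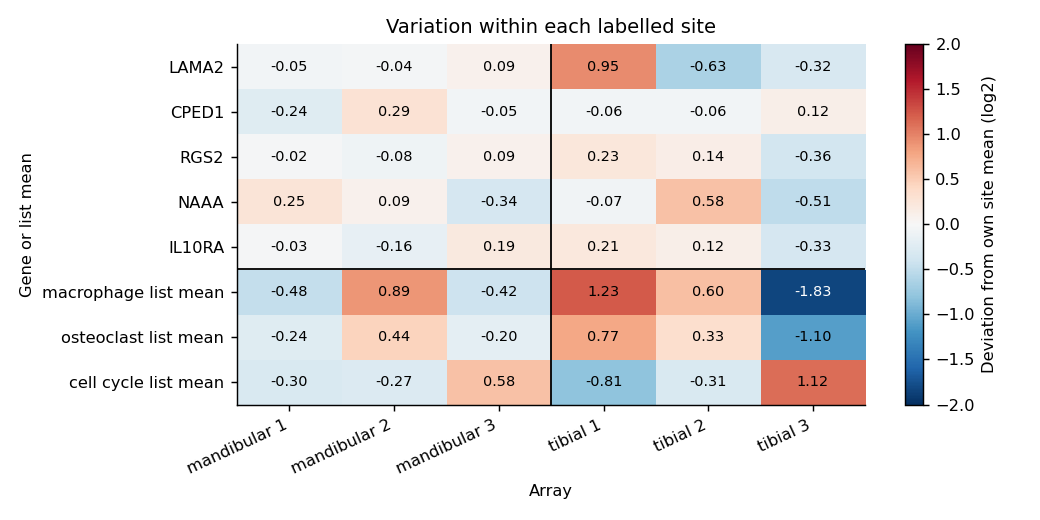
Deviation of each gene and of 3 list means from the mean of its own labelled site (colour and printed value, log2) on each array. Tibial 3 has the deepest negative value for the macrophage list, -1.83, where CPED1 is at 0.12; LAMA2 has its highest value, 0.95, on tibial 1.

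Markers of other cell types were also measured. Osteoclast markers were lower in mandibular cultures for 8 of 10 genes, with a median of -0.43, and list means between 5.52 and 6.19 on the mandibular and between 5.68 and 7.55 on the tibial arrays. This median was -0.21 without tibial 1 and -0.69 without mandibular 2 and tibial 3. Endothelial markers had 2 of 7 genes with tibial levels above all mandibular ones, PECAM1 at -0.55 (SE 0.16) and ESAM at -0.54 (SE 0.18), and a median of -0.25, or -0.10 without tibial 1. KDR, an endothelial growth factor receptor gene, had the reverse, at 0.45 (SE 0.19). Its lowest mandibular level was only 0.01 above its highest tibial level. All its levels lay below the lower quartiles of the arrays and cannot be separated from background. Over all named genes the shares without overlap were 3.31% with higher tibial and 3.13% with higher mandibular levels. FLT1, another such receptor gene, had the widest difference, 1.38 (SE 0.95), with 8.14 on mandibular 2 and 4.16 to 4.91 on the other arrays. Their list means, from 4.60 to 5.22 and from 4.67 to 5.07, overlapped between the sites. For lymphocyte markers the median was -0.09 over 11 genes, with NKG7, a gene of cytotoxic granules, at -2.54 (SE 1.00). LAMA2 is known from muscle and Schwann cells. The measured skeletal muscle markers MYOD1, MYOG and ACTA1 differed by -0.06, 0.08 and 0.39, and the Schwann cell markers SOX10, NGFR and CDH19 by -0.04, -0.02 and -0.16. The 6 smooth muscle and pericyte markers had a median of -0.17, which with 1 array omitted ranged from -0.33 without mandibular 2 to -0.04 without mandibular 1. The 6 adipocyte markers had a median of -0.40, which was -0.04 without tibial 1 and -0.62 without tibial 3. The 14 stromal markers had one of -0.04. None of these markers passed the test (adjusted p = 0.9995 for each in limma). Their part in the levels of the 5 genes was not tested.

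The other laminin chains had no gap between the sites. Of 11 listed chains 5 were measured, 0 passed the test in either direction, and none was without overlap. Their median difference was -0.03, or 0.17 without tibial 1, against 0.005 over all named genes. LAMA4, the alpha chain of vessel and fat basement membranes, measured 8.63, 10.14 and 8.95 on the mandibular and 9.97, 9.69 and 8.39 on the tibial arrays, so that mandibular 2 was the highest array, and it differed by -0.12 (SE 0.53). LAMB1, the beta chain found in the same trimer as LAMA2, differed by 0.10 (SE 0.25), and LAMA3, LAMB3 and LAMC3 by -0.17, 0.12 and -0.03. LAMC1, LAMB2 and LAMA5 are not analysed here. The difference between LAMA2 and the other chains was not tested.

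Of 42 listed laminin receptors and basement membrane partners 23 were measured, and 0 passed the test. In 12 of them the tibial mean was higher, or about the share of all named genes, of which 48.7% were lower in mandibular cultures. ITGA3, a laminin-binding integrin chain, was the farthest from 0 and ran the other way, at 0.77 (SE 0.27), with 7.50, 7.89 and 7.71 against 7.51, 6.47 and 6.81. ITGB1, the beta chain it pairs with, differed by -0.10 (SE 0.14). COL4A6, a collagen chain of basement membranes, was the only gene of the 23 with tibial levels above all mandibular ones, at 4.69, 4.87 and 4.88 against 5.01, 5.08 and 5.11. The share of all named genes with such a lack of overlap was 3.31%. HSPG2, the proteoglycan perlecan, differed by -0.27 (SE 0.17) and SPARC, a collagen-binding matrix protein, by -0.16 (SE 0.13). DAG1, ITGA6 and ITGA7 are not analysed here.

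Most relatives of RGS2 had differences near 0. Of 20 other RGS genes listed 13 were measured, 0 passed the test, and the median difference was -0.03. RGS18, a regulator of blood cells and platelets, measured 2.69, 2.76 and 2.83 on the mandibular and 3.73, 3.82 and 2.90 on the tibial arrays, a difference of -0.72 (SE 0.25) with no overlap. These levels lie at or below the lower quartile of the arrays and cannot be separated from background. RGS18 was the only one of the 13 without overlap, with a gap of 0.07. Of all named genes, 3.31% had tibial levels above all mandibular ones, so nothing is read from this count. RGS10, also known from immune cells, differed by -0.68 (SE 0.43), with 7.83 and 7.04 on tibial 1 and tibial 2 and 6.02 on tibial 3. Tibial 3 was thus below all mandibular levels of RGS10, which were 6.43, 6.09 and 6.33. RGS3, RGS4, RGS5 and RGS16 differed by 0.02, -0.07, 0.08 and 0.08, and RGS21 and RGS12 by -0.14 and 0.11.

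Among 30 measured genes of Gq and cyclic nucleotide signalling, 21 had higher tibial means, against 48.7% of all named genes. Of the 30, 0 passed the test, and the median of -0.10 was -0.02 without tibial 1 and -0.19 without tibial 3. GNAQ, the alpha subunit on which RGS2 acts, differed by -0.10 (SE 0.18). GNA15, the Gq-class subunit of blood cells, differed by -0.84 (SE 0.39) and had 4.63 on tibial 3 against 6.16 and 5.55 on tibial 1 and tibial 2. PRKG1, the cyclic GMP-dependent kinase that acts on RGS2, measured 7.76, 7.75 and 7.31 against 8.13, 8.33 and 7.58, a difference of -0.41 (SE 0.23). EDNRB, an endothelin receptor gene, differed by -2.91 (SE 1.44), with 9.56 and 7.27 on tibial 1 and tibial 2 and 3.58 on tibial 3. PTGER3, a prostaglandin receptor gene, was the only one of the 30 without overlap, at -0.60 (SE 0.20), with all levels under the lower quartile of the arrays. Over all named genes, 3.31% had tibial levels above all mandibular ones, so nothing is read from this count. Genes of the cyclic AMP and immediate early response, to which RGS2 belongs in bone cells, had differences of both signs. Of 17 measured, 8 had higher tibial means, and the median was 0.02. PTGS2, the inducible prostaglandin synthase, and AREG, a growth factor, differed by 0.99 (SE 0.58) and 1.82 (SE 1.07) with higher mandibular means, and NR4A2 and IER2 by 0.39 and 0.26. None passed the test (adjusted p = 0.9995 for each in limma).

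Enzymes that handle the same lipids as NAAA mostly had small differences. ASAH1, acid ceramidase, the closest relative of NAAA, measured 9.81, 9.30 and 8.73 on the mandibular and 10.54, 9.27 and 8.14 on the tibial arrays, so its highest and its lowest level were both tibial, and it differed by -0.04 (SE 0.60). FAAH, the amidase outside the lysosome that cleaves the same kind of lipid, differed by 0.06 (SE 0.14), and NAPEPLD, which makes these lipids, by -0.08 (SE 0.11). PPARA, the nuclear receptor for palmitoylethanolamide, measured 6.42, 6.50 and 6.54 against 6.76, 6.95 and 6.64, a difference of -0.29 (SE 0.12) with no overlap. PLA2G16, an acyltransferase of the same lipids, also had no overlap, with a gap of 0.03 and a difference of -0.37 (SE 0.14). FABP5, a fatty acid carrier, differed by -1.86 (SE 1.04), with 6.39 on tibial 3 and 8.07 on mandibular 2. GPR55, a receptor gene, differed by 0.17. Of the 14 measured genes of N-acylethanolamine and endocannabinoid metabolism, 8 had higher tibial means and 0 passed the test, and the median was -0.02, or 0.08 without tibial 1. The 2 without overlap stand against 3.31% of all named genes.

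Among 30 measured lysosomal genes, 22 had higher tibial means, against 48.7% of all named genes. The median was -0.15, and 0 passed the test. Without tibial 1 this median was 0.08, so its direction rested on that array. AGA, an amidase that processes glycoproteins, was the only one of the 30 without overlap, at 6.95, 6.98 and 6.90 against 7.23, 7.23 and 7.12, a difference of -0.25 (SE 0.10). Of all named genes, 3.31% had tibial levels above all mandibular ones, so nothing is read from this count. GUSB, beta-glucuronidase, differed by -0.52 (SE 0.25), LIPA, the lysosomal lipase, by -1.15 (SE 0.62) and CTSS, a cathepsin of antigen-presenting cells, by -2.70 (SE 1.36). For CTSS tibial 3 was at 5.19 and mandibular 2 at 6.96. Of the 30 genes, 24 were higher on mandibular 2 than on tibial 3.

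The rest of the interleukin-10 pathway was measured in part. IL10, the ligand, measured 4.46, 4.67 and 4.68 on the mandibular and 5.74, 5.77 and 4.30 on the tibial arrays, so that tibial 3 was the lowest of all 6, and it differed by -0.67 (SE 0.39). The kinases JAK1 and TYK2 differed by -0.20 (SE 0.20) and -0.02 (SE 0.11), and STAT3, the transcription factor they activate, by -0.06 (SE 0.14). NFIL3, a target of the pathway in macrophages, differed by -0.30 (SE 0.22) and ETV3, another, by 0.19 (SE 0.22). Of 7 measured genes of the pathway 5 had higher tibial means, 0 passed the test, and the median was -0.06. All 7 were higher on mandibular 2 than on tibial 3. IL10RB and SOCS3 are not analysed here. Of the receptor family to which IL10RA belongs, 5 genes were measured and 0 passed, with a median of -0.10, or 0.03 without tibial 1 and -0.28 without mandibular 2. IL20RB, the only one of the 5 without overlap, differed by -0.30 (SE 0.14) with a gap of 0.03. Of all named genes, 3.31% had tibial levels above all mandibular ones, so nothing is read from this count. IFNLR1, IL22RA2 and IL20RA differed by -0.21, -0.10 and 0.48.

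The genes around CPED1 had differences of mixed sign. WNT16, a bone-active WNT ligand and its direct neighbour, measured 5.50, 5.73 and 6.07 on the mandibular and 5.24, 4.98 and 5.94 on the tibial arrays, a difference of 0.38 (SE 0.28) in the other direction. FAM3C, a secreted factor gene, and ING3, a chromatin gene, differed by 0.16 (SE 0.15) and 0.08 (SE 0.22), and TSPAN12, a membrane protein of WNT receptor signalling, by -0.33 (SE 0.29). PTPRZ1, a receptor phosphatase gene farther along, differed by 0.39 (SE 0.17). Of the 7 listed genes of the locus all were measured, 2 had higher tibial means and 0 passed the test, with a median of 0.14. The other genes with a PC-esterase domain had CASD1 at 0.29, PCED1A at 0.05, NXPE2 at -0.05 and NXPE3 at 0.00, a median of 0.03 over 4 genes and 0 passing.

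**Figure D4:**
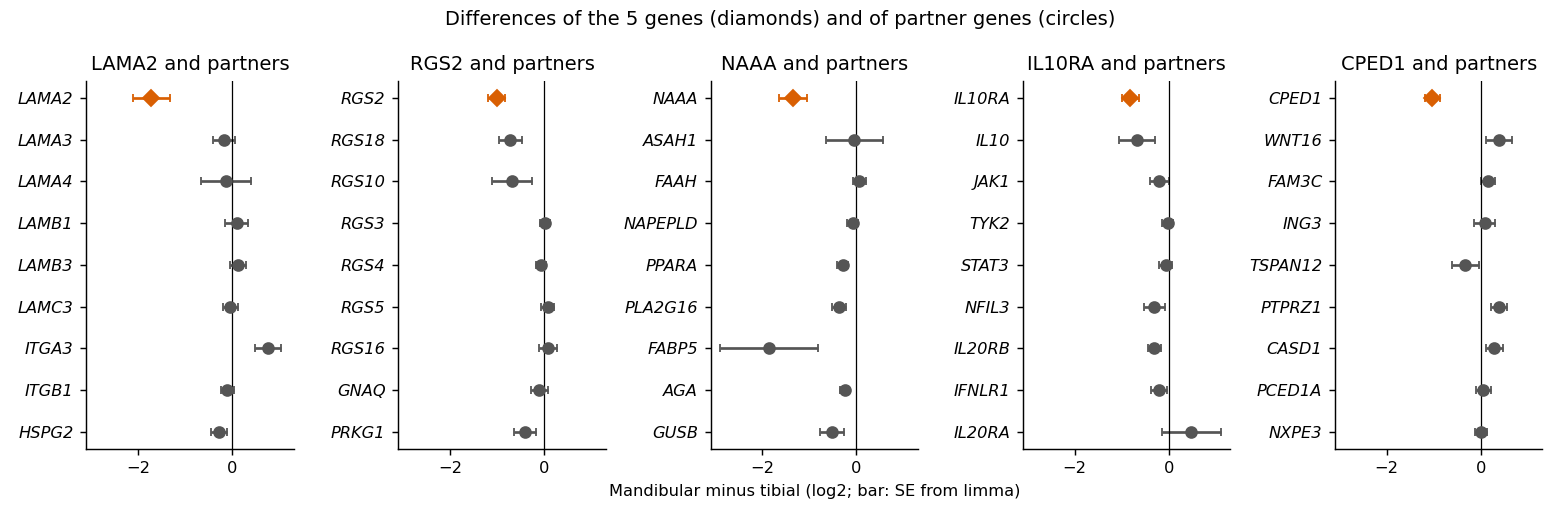
Mandibular minus tibial difference (horizontal axis, log2, bar: SE from limma) of each of the 5 genes (diamonds) and of 8 partner genes (circles). The partners are of its family or pathway, but for CPED1 they are genes of its chromosomal locus and genes with a PC-esterase domain. Among the genes drawn, FABP5, at -1.86 with an SE of 1.04, lies farther from 0 than the diamond of its panel. Of the genes not drawn, EDNRB (-2.91), AREG (1.82), GNA14 (-1.08) and ADCY2 (-1.07) are farther from 0 than RGS2, and CTSS (-2.70) is farther than NAAA. The diamonds were chosen for their place left of 0 and carry no test.

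Chromosomal neighbours were taken by position alone from the RefSeq gene order of the Sscrofa11.1 assembly, after the values of the 5 genes were known. On each side the nearest 2 measured, named protein-coding genes were used, 20 in all. Of these, 1 had tibial levels above all mandibular ones and 3 the reverse, against 3.31% and 3.13% of all named genes. In limma 0 passed the test, and the median difference was 0.02. The gene with higher tibial levels was RGS18, which lies with RGS21 in the RGS cluster beside RGS2. The 3 with higher mandibular levels were PTPRK beside LAMA2 at 0.25 (SE 0.11), GLRX2 near RGS2 at 0.12 (SE 0.10) and DSCAML1 near IL10RA at 0.76 (SE 0.14). DSCAML1, a neuronal adhesion gene, measured 6.72, 6.44 and 6.61 on the mandibular and 5.93, 5.93 and 5.61 on the tibial arrays. The direct neighbours of NAAA, PPEF2 and SDAD1, differed by 0.01 and 0.00.

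The genes with the most similar levels were found by Pearson's r over the 6 arrays among 1619 named genes with a range of at least 1. For each of the 5, the 5 highest were taken, which gave 22 different genes. Of these 22, 19 also had tibial levels above all mandibular ones, against 3.31% of all named genes. They were ranked by likeness to genes chosen for that lack of overlap, so nothing is read from this count. For LAMA2 they were TLR8, an endosomal receptor for RNA, with r = 0.995, PHEX, an endopeptidase gene of bone mineralization, with 0.962, P2RY11, a nucleotide receptor gene, with 0.955, EFCAB9 with 0.944 and IFN-ALPHA-15 with 0.930. All 5 had their highest level on tibial 1. TLR8 measured 3.46, 3.54 and 3.65 on the mandibular and 4.72, 3.97 and 4.10 on the tibial arrays. Such levels are near the lower quartile of the arrays, as are those of PHEX and EFCAB9, and cannot be separated from background.

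For CPED1 no gene came as close. SUCLA2, a subunit of a mitochondrial ligase, had the highest value, 0.886, and measured 8.35, 8.76 and 8.62 against 9.39, 9.45 and 9.01. HPSE, which cleaves heparan sulfate, ESAM, MIR331 and KCNT2 followed with 0.810, 0.806, 0.785 and 0.784. Between deviations from the site means, r with CPED1 was 0.3 for SUCLA2, 0.2 for HPSE, 0.15 for ESAM, 0.52 for MIR331 and -0.02 for KCNT2. Much of the likeness in levels thus lay in the difference between the sites, which was the condition of the choice. None of the 1619 genes reached 0.95 with CPED1, whereas 2 to 4 did with each of the other 4 genes.

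RGS2 and IL10RA shared 3 of their 5 likest genes. DOCK10, an exchange factor for small G proteins, had r = 0.976 with RGS2 and 0.982 with IL10RA, and measured 4.01, 3.66 and 3.99 against 5.09, 4.82 and 4.36. VAV3, another exchange factor, had 0.945 and 0.963, and P2RY13, a nucleotide receptor gene of myeloid cells, 0.945 and 0.935. For RGS2 the others were DEPTOR, an inhibitor of the kinase mTOR, with 0.955 and F13A1 with 0.948. For IL10RA they were FLI1, a transcription factor of blood and endothelial cells, with 0.952, and RGS18 with 0.937. The likest genes of NAAA were C1QTNF7, a secreted relative of complement C1q, with 0.986, PTGER3 with 0.980, the mitochondrial cyclophilin gene PPIF with 0.964, the chemokine gene CCL14 with 0.954 and the anchoring protein gene AKAP5 with 0.949. C1QTNF7 measured 4.62, 4.42 and 4.36 against 5.08, 5.62 and 4.93, with its highest level on tibial 2 as for NAAA. For these correlations 6 arrays were used, so high values arise easily, and no p is given.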

How the data were processed

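The deposited values are log2 levels of 27558 probe sets on 6 arrays, 3 for each site. The submitters' processing notes name RMA, Transcriptome Analysis Console 3.0 and Affymetrix Expression Console as what the authors used. Their settings and genome build were not given in the sources used here, so no coordinates or sequences are printed. GEO's platform annotation listed 13157 probe sets under 1 symbol, 523 under several and 13878 under none. After 7 updates by Entrez number and removal of placeholder symbols, 11700 probe sets named 10881 genes, and the one with the highest mean stood for each gene. Differences are mandibular minus tibial from limma 3.58.1 in R 4.3.3 (lmFit, eBayes), two-sided, adjusted over all 27558 probe sets at 0.05. SD is over 3 arrays and SE is limma's. The fit was run on simulated data with independent noise and a known shift in some probe sets, to check its estimate of that shift. By the design text the deposited arrays share pigs, so nothing is read from this for the number of calls. Precision is limited by the number of arrays.

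The members and gene lists were chosen with earlier results of these data known. The genes named are the 5, up to 4 genes with the smallest unadjusted p in each pathway list, fixed partners and markers, and for each member the 5 genes of highest r. Other genes were named after their values were seen. Equal replicate numbers were not taken to pair the arrays. Deviations from site means correlated at -0.033 for number 1, 0.212 for number 2 and 0.473 for number 3, and 0.1 was asked of every pair. Such a check cannot show whether equal numbers mark the same pig. Alternatives were a replicate block, omissions of arrays, array weights, centring, a filter on low levels, other variance settings and the mean over probe sets.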

Additional observations from a re-analysis of the deposited data

How the results depend on the processing

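With all 6 arrays, limma called 0 probe sets in the main fit and with the replicate block, array weights, median centring, the filter on low levels, trended and robust moderation, and without moderation. At an unadjusted p under 0.05 these fits gave 836, 1511, 1122, 882, 306 (of 13779 tested), 817 and 848 probe sets. In single omissions the calls ranged from 0 to 2, with 1 without tibial 1 and 2 without tibial 3, and there were 195 without mandibular 2 and tibial 3. The cause was not tested. The differences of LAMA2, CPED1, RGS2, NAAA and IL10RA each moved by less than the SD within sites in all 12 alternatives. With the replicate block, the filter on low levels and the mean over probe sets they could not move. The block is balanced over the sites, the filter only drops other probe sets, and each gene had 1 probe set. As the genes were chosen on this contrast, nothing is read from these alternatives. Of 22 list medians, 12 kept their sign in all 12 alternatives. Among the pathway lists these were Gq and cyclic nucleotide signalling, interleukin-10 signalling and the genes beside CPED1. The medians of the other pathway lists did not keep theirs. Of 264 list values 7 moved by more than the SD of the list mean. These were the macrophage (-3.64), RGS family (0.10) and PC-esterase (0.16) medians without mandibular 2 and tibial 3, and with the filter on low levels, which tests fewer genes, the granulocyte (-1.28), lymphocyte (-2.54), endothelial (-0.55) and adipocyte (-1.28) medians. Levels near the lower quartile cannot be separated from background.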
